A study of Mus musculus with 2 samples.

Results

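The 10 genes described here encode 4 secreted guidance ligands, Slit2, Slit3, Ntn1 and Ntn4, and 6 receptors for such ligands, Robo1, Robo2, Unc5b, Unc5c, Unc5d and Dcc. They were taken by name from the 32285 genes counted in 2 libraries of fetal mouse lung nuclei, and all 10 had UMIs (unique molecular identifiers, 1 per captured RNA molecule) among the 23370 genes detected in kept nuclei. The choice followed a fibroblast-like cluster of these libraries that Slit2 and Unc5c led, so the members were chosen by measured values, the RNA levels of that cluster against other nuclei. It is given below as a description and supports nothing. The accessibility of their promoters took no part in the choice.

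Slit proteins are secreted ligands of the Robo receptors, and Slit binding to Robo repels growing axons and migrating cells through regulators of the actin cytoskeleton. Netrins are laminin-related proteins that attract through Dcc and its relative neogenin and repel through receptors of the Unc5 family. Unc5 receptors and Dcc are also known as dependence receptors, which can signal death when their ligand is absent. Outside the nervous system the same proteins act in branching organs and vessels, and in the lung Slit and Robo genes are known for roles in the mesenchyme and in thinning of the airspace wall.

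The study asked how asthma of the mother alters the fetal lung, with a view to group 2 innate lymphoid cells (ILC2s). Wild type females were sensitised with ovalbumin (OVA) in alum and challenged with OVA in pregnancy, or given PBS in alum and then PBS. Fetal lungs were taken on gestation day 18 (E18). A mix of sorted ILC2s (CD45+ Lin- ST2+), other CD45+ immune cells and EpCAM+ epithelium was used to read RNA and accessible chromatin from the same nuclei. The PBS library pooled 9 fetuses and the OVA library pooled 8 fetuses, so each group was 1 library. No difference between the groups therefore has a replicate check, no p-value is given, and all intervals are 95% intervals that cover counting error only.

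The PBS library held 8019 barcodes with 11473351 gene UMIs and the OVA library 5960 barcodes with 13774959. Filtering and doublet removal kept 4279 and 4996 nuclei, whose median was 650 and 1217 UMIs of nuclear genes. The libraries shared 54 barcodes. Types were gated on 8 marker genes each, none of them a member, and the 7 named types with at least 50 nuclei in both libraries are described. They were alveolar fibroblasts (344 PBS and 761 OVA nuclei), myofibroblasts or smooth muscle (210 and 261), pericytes (77 and 134), alveolar type 2 (AT2) cells (155 and 178), alveolar type 1 (AT1) cells (118 and 206), ILC2s (244 and 499) and macrophages (166 and 364). In each of these types all 8 of its own markers were detected. The sorts named above do not include stromal cells, yet 1328 PBS and 1707 OVA nuclei were stromal, more than the epithelial nuclei (351 and 432). How they entered is not given in the sources used here, and what share of lung stroma they stand for cannot be read from these data. Of the stromal nuclei 662 and 517 passed no type gate and are called untyped stroma.

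Levels are CPM (counts per 1000000), the UMIs of a gene summed over the nuclei of a type and divided by all UMIs of nuclear genes in those nuclei. They compare types for the same gene and not genes with each other. The sources used here do not give how strand was treated in counting. Counted genes overlap Slit2 (4930518C09Rik on the other strand and Gm20475), Slit3 (Gm12122), Ntn1 (Gm12305), Ntn4 (Gm15915 and Gm15963, both antisense) and Unc5c (Gm15688 and Gm15689, both antisense), and the values of those 5 members are uncertain to the extent that reads were split or shared.

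Slit2 (ENSMUSG00000031558, chr5:47983138-48307733 on the forward strand of GRCm38) encodes a secreted ligand of Robo receptors. Its 14699 UMIs were the most of any member. In alveolar fibroblasts it stood at 4059 CPM (95% interval 3871 to 4255, 1740 UMIs) in PBS and 4450 CPM (4350 to 4552, 7544 UMIs) in OVA nuclei. Myofibroblasts or smooth muscle had 1140 and 931 CPM, and pericytes 230 and 253 CPM. The 3 stromal types thus lay in the same order in both libraries, with alveolar fibroblasts 3.56-fold (log2 1.83, 1.65 to 2.02) and 4.78-fold (log2 2.26, 2.12 to 2.40) above myofibroblasts and 17.6-fold above pericytes in each library. Untyped stroma lay between the first pair, at 1992 and 2408 CPM.

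Outside stroma Slit2 was much lower but not equal across types. AT2 nuclei held 120 CPM (83.8 to 166) in PBS and 207 CPM (170 to 250) in OVA nuclei, and AT1 nuclei held 145 and 194 CPM. AT2 and AT1 levels could not be told apart, with log2 differences of -0.28 (-0.98 to 0.42) and 0.10 (-0.30 to 0.50). ILC2s held 72.1 (36.0 to 129) and 57.1 CPM (38.8 to 81.1). Macrophages, which are not a known source, held 47.7 and 13 CPM and serve as the measure of stray RNA. AT2 nuclei exceeded them 2.51-fold (log2 1.33, 0.24 to 2.56) and 15.9-fold (log2 3.99, 2.96 to 5.24). The summed stromal markers were no higher in AT2 nuclei (259 and 129 CPM) than in macrophages (286 and 202 CPM). Their part in the Slit2 values was not tested.

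The promoter of Slit2 was open in stroma and epithelium alike. Accessibility is given as peak CPM, transposition counts in peaks within 1 kb of the gene start per 1000000 counts in all peaks of the same nuclei. It was 36.1 (28.4 to 45.2) in PBS and 35.4 (30.6 to 40.8) in OVA alveolar fibroblasts, 35.1 (27.7 to 43.8) and 34.0 (26.4 to 43.2) in AT2 nuclei, and 12.2 and 7.71 in macrophages. Stromal over epithelial nuclei differed by log2 0.22 (-0.06 to 0.50) and -0.09 (-0.37 to 0.20) at the promoter, against log2 3.73 (3.50 to 3.97) and 3.74 (3.58 to 3.89) in RNA. Accessibility of this window therefore did not separate the lineages that the RNA level separates. The sequence before the start, from RefSeq on GRCm38.p6, is shown because of that difference. It covers chr5:47982905-47983137 on the forward strand and ends where the first annotated exon begins, and capitals mark 3 GC boxes (GGGCGG, searched on both strands).
Slit2 promoter: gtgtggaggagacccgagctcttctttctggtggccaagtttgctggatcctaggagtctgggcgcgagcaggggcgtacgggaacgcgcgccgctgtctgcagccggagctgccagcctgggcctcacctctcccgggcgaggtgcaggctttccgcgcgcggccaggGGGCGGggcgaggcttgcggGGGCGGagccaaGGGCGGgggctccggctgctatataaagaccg
Of the 250 bases before the RefSeq start, 69.6% were G or C, against a median of 52.4% over 32851 promoters of that length, of which 32.7% held a GC box.

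Slit3 (chr11:35121224-35708507, forward strand), the other Slit ligand, followed stroma too but with a different order and with 1 epithelial type above the other. Alveolar fibroblasts had 1122 (1024 to 1227) and 1160 CPM (1109 to 1212) in the PBS and OVA library, myofibroblasts 295 and 397, and pericytes 384 and 625. Untyped stroma had 929 and 1117 CPM, from which alveolar fibroblasts differed by log2 0.27 (0.09 to 0.46) and 0.05 (-0.07 to 0.18), and the few adventitial fibroblasts (28 and 20 nuclei) had 1228 and 1336 CPM. Pericytes exceeded myofibroblasts by log2 0.66 (0.35 to 0.96) in the OVA library, while in the PBS library the interval of log2 0.38 spanned equality (-0.21 to 0.95). Where Slit2 was 17.6-fold higher in gated alveolar fibroblasts than in gated pericytes, Slit3 was 2.92-fold and 1.86-fold higher. The pericyte levels depend on the gate. In a clustering of both libraries that left out the members, the pericyte cluster had Slit3 at 177 and Slit2 at 115 CPM. The 2 alveolar fibroblast clusters had Slit3 at 1010 and 1150 CPM and Slit2 at 3330 and 4500 CPM. AT2 nuclei held 276 CPM (220 to 342, 83 UMIs) and 320 CPM (274 to 373, 167 UMIs), and AT1 nuclei held 61.2 (16 UMIs) and 34.8 CPM (19 UMIs). AT2 thus exceeded AT1 by 4.51-fold (log2 2.17, 1.39 to 3.05) and 9.22-fold (log2 3.20, 2.52 to 3.97), and macrophages held 2 UMIs in each library. At the promoter alveolar fibroblasts reached 40.8 (32.7 to 50.4) and 35.7 peak CPM (30.9 to 41.1), and AT2 nuclei 4.56 (2.18 to 8.38) and 11.7 (7.41 to 17.5). The Slit3 promoter was therefore less accessible in AT2 nuclei than in fibroblasts, unlike that of Slit2.

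Both Slit genes carry a copy of the same microRNA gene within their span, Mir218-1 in Slit2 and Mir218-2 in Slit3, on the strand of the host. The mature miR-218-5p of both is identical, at chr5:48223966-48223986 and chr11:35616840-35616860 (RefSeq, GRCm38.p6), and its seed is in capitals.
miR-218-5p: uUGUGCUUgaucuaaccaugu
It was not measured by these libraries, and the sequence is given as context for the host transcripts.

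Ntn1 (chr11:68209364-68400823, reverse strand), the netrin best known as an axon attractant, had 126 UMIs in all and was highest in AT2 nuclei among the 7 named types. These held 69.8 CPM (43.2 to 107, 21 UMIs) in PBS and 48.0 CPM (31.0 to 70.8, 25 UMIs) in OVA nuclei, and AT1 nuclei 1 UMI in each. The ratios of 18.3-fold (log2 4.19, 1.55 to 9.56) and 26.2-fold (log2 4.71, 2.10 to 10.07) rest on that single UMI and on the gates. In a clustering of both libraries without the members, the AT1 cluster held 33 Ntn1 UMIs (13.4 CPM). The AT2 cluster held 52 (53.2 CPM), so the difference was smaller there. Alveolar fibroblasts held 1 and 8 UMIs, and ILC2s and macrophages none, which allows up to 24.2 and 6.80 CPM in ILC2s. In PBS pericytes 3 UMIs gave 28.8 CPM, and AT2 over pericytes was log2 1.28 (-0.47 to 3.67) in that library and 3.73 (1.12 to 9.09) in OVA nuclei. Those nuclei held 355 CPM of summed epithelial markers, against 51.3 CPM in alveolar fibroblasts and 59.0 CPM in myofibroblasts of that library and 126 CPM in OVA pericytes. Their part in the pericyte value was not tested. The Ntn1 promoter was as accessible in stroma (33.0 and 36.2 peak CPM) as in epithelium (39.9 and 33.0). Peaks over the whole annotated gene, an added comparison chosen after seeing the data, gave 157 (141 to 175) and 141 peak CPM (125 to 159) in AT2 nuclei against 56.5 (46.8 to 67.6) and 63.2 (56.7 to 70.3) in alveolar fibroblasts.

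Ntn4 (chr10:93640681-93747207, forward strand), a netrin of basement membranes, was highest in the myofibroblast or smooth muscle gate. It stood at 165 CPM (119 to 223, 42 UMIs) and 183 CPM (146 to 225, 87 UMIs) there, at 67.2 and 47.0 CPM in pericytes, and at 2.33 (1 UMI) and 1.18 CPM (2 UMIs) in alveolar fibroblasts. Myofibroblasts exceeded pericytes 2.46-fold (log2 1.30, 0.13 to 2.70) and 3.89-fold (log2 1.96, 1.11 to 2.93). Alveolar fibroblasts, the highest of the 7 named types for both Slit genes, thus held almost no Ntn4. Its promoter was not more accessible in stroma: the stromal over epithelial difference was log2 -0.73 (-1.19 to -0.27) in PBS and -0.26 (-0.66 to 0.15) in OVA nuclei.

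Robo1 (chr16:72308306-73046095, forward strand), a Slit receptor, was high in both fibroblast gates. Alveolar fibroblasts had 929 (840 to 1024) and 999 CPM (952 to 1047), and myofibroblasts 1026 (906 to 1159) and 1162 CPM (1067 to 1263). The difference between them was log2 -0.14 (-0.37 to 0.09) in PBS and -0.22 (-0.36 to -0.08) in OVA nuclei. Pericytes were lower, at 163 and 354 CPM. AT1 nuclei held 161 (116 to 217, 42 UMIs) and 240 CPM (200 to 284, 131 UMIs), and AT2 nuclei 123 and 180 CPM, against 15.9 and 8.14 CPM in macrophages. Both alveolar epithelial types lay above macrophages, 10.1-fold and 29.4-fold for AT1 and 7.73-fold and 22.2-fold for AT2.

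Among immune types Robo1 separated ILC2s from macrophages in chromatin and, in the deeper library, in RNA. ILC2s held 32.8 CPM (5 UMIs) in PBS and 66.3 CPM (46.5 to 91.8, 36 UMIs) in OVA nuclei. Their ratio to macrophages was log2 1.04 (-1.32 to 3.73) and 3.03 (1.67 to 4.73). Stromal markers summed to 301 and 251 CPM in ILC2s and to 286 and 202 CPM in macrophages. The Robo1 promoter gave 16.0 (10.8 to 22.9, 30 counts) and 13.3 peak CPM (9.91 to 17.4, 52 counts) in ILC2s, and no count in macrophages of either library, which allows up to 2.25 and 1.02 peak CPM. Over the whole gene, also a comparison chosen after seeing the data, ILC2s had 47.0 (37.7 to 57.9) and 38.8 (32.9 to 45.5). Macrophages had 4.88 (2.10 to 9.61) and 3.30 (1.71 to 5.77). In alveolar fibroblasts the promoter gave 27.1 and 26.2 peak CPM and in pericytes 54.2 (37.1 to 76.5) and 34.9 (25.2 to 47.0), so pericytes, whose Robo1 RNA was lower than that of fibroblasts, were not lower at the promoter. The accessible start was at chr16 position 72663149. The 2 starts that GENCODE M21 places further upstream, 355 kb and 99.4 kb away, had no peak within 1 kb in either library.

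Robo2 (chr16:73891839-74411825, reverse strand), a second Slit receptor, was high in both fibroblast gates. Myofibroblasts held 2120 (1944 to 2306) and 2479 CPM (2339 to 2624) and alveolar fibroblasts 1694 (1573 to 1822) and 1736 CPM (1674 to 1800). Myofibroblasts were 1.25-fold (log2 0.32, 0.16 to 0.49) and 1.43-fold (log2 0.51, 0.42 to 0.61) higher, the reverse of the order for Slit2. Gated pericytes stood at 173 and 246 CPM, 9.80-fold and 7.07-fold below alveolar fibroblasts, and the pericyte cluster at 68.2 CPM over both libraries. AT2 nuclei held 33.2 CPM (10 UMIs) and 9.59 CPM (5 UMIs), AT1 nuclei 15.3 and 11 CPM, and macrophages 63.7 and 14.7 CPM. Robo2 in the gated alveolar epithelium was thus at or below the level in macrophages, and these values are not read as expression. The clustering without the members differed. Its AT1 cluster held 226 Robo2 UMIs (92.0 CPM over both libraries), against 17.4 CPM in the AT2 cluster and 13.9 to 30.8 CPM in the macrophage clusters. All gated epithelial nuclei together held 33 and 34 Robo2 UMIs. The source of the further UMIs in the AT1 cluster was not tested.

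Accessibility at Robo2 differed between annotated starts. Of the starts near the 5′ end of the GENCODE gene, chr16 position 74410912 was used for the window of 1 kb either side. The window held 1 peak, chr16:74411052-74412166 in PBS and chr16:74411247-74412297 in OVA nuclei, which also covers the outermost start at 74411825, 913 bases further upstream. In that peak alveolar fibroblasts gave 26.6 (20.1 to 34.5) and 28.4 peak CPM (24.1 to 33.2), myofibroblasts 34.2 and 35.6, and AT2 nuclei 10.5 (6.64 to 15.7) and 4.57 (2.09 to 8.68). RefSeq adds a start at position 75092770, 682 kb upstream and outside the GENCODE gene. There AT2 nuclei gave 16.4 (11.5 to 22.7, 36 counts) and 23.4 peak CPM (17.1 to 31.2, 46 counts) and AT1 nuclei 8.60 and 7.27. Alveolar fibroblasts gave 4.75 (2.28 to 8.73) and 0.553 (0.114 to 1.62), myofibroblasts 0 and 0.456, and ILC2s and macrophages no count. The AT2 and fibroblast intervals did not overlap at either start, and their order was opposite. This comparison of starts was added after seeing the data. Which start the Robo2 UMIs came from was not tested.

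The 250 bases before 2 RefSeq starts, on GRCm38.p6 and read 5′ to 3′ on the reverse strand, are shown since they lie in peaks that were accessible in different lineages. The first, chr16:74411826-74412075, precedes the outermost start at 74411825 and lies wholly in the peak given above in both libraries. The second, chr16:75092771-75093020, precedes the upstream start and lies wholly in its peak in PBS and by 135 bases in OVA nuclei. Capitals mark an E-box (CAGCTG), which 13% of all 32851 promoters held.
Robo2 outermost start of the GENCODE gene: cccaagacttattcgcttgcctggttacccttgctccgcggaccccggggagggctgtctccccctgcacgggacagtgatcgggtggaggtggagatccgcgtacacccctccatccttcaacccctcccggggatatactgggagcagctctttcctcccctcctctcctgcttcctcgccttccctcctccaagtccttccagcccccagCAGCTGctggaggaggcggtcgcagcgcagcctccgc
Robo2 upstream start: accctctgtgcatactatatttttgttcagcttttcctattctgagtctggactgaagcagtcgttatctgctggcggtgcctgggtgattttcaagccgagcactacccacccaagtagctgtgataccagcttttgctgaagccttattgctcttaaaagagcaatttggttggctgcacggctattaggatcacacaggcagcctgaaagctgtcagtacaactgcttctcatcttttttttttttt
The first window held 65.6% G or C and the second 44.8%. Neither held a GC box, a TEAD (CATTCC), AP-1 (TGANTCA) or FOX (GTAAACA) motif or a CCAAT box on either strand, motifs that 32.7%, 12.6%, 6.75%, 3.17% and 33.8% of all promoters held.

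**Figure D1:**
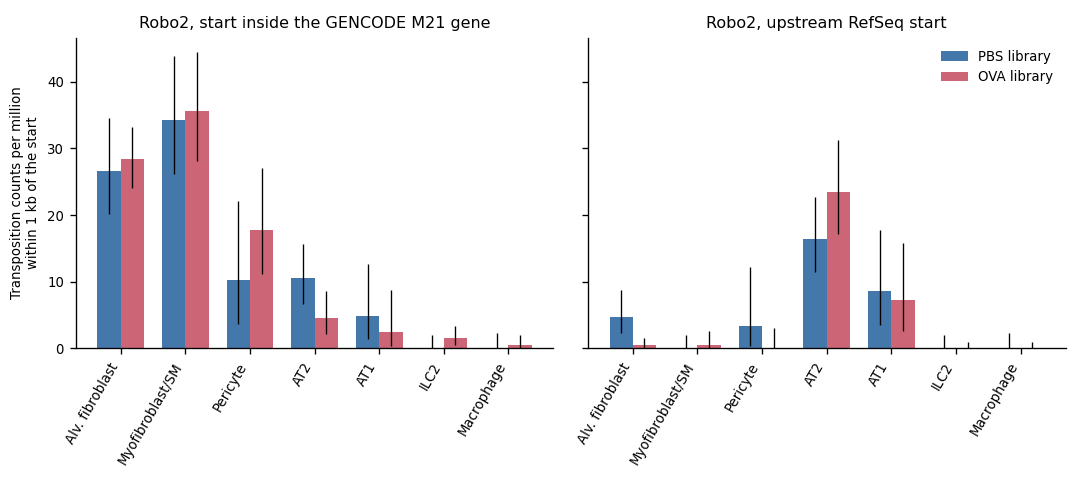
Accessibility within 1 kb of 2 annotated Robo2 starts. The y axes give peak CPM (transposition counts per 1000000 counts in all peaks of a type), bars are types in the PBS (blue) and OVA (red) library, and lines are 95% counting intervals. Fibroblast gates lead at the start inside the GENCODE gene (26.6 to 35.6 peak CPM) and AT2 nuclei at the upstream RefSeq start (16.4 and 23.4).

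Unc5c (chr3:141465216-141834924, forward strand), a repulsive netrin receptor, was the receptor most tied to alveolar fibroblasts. They held 1526 (1411 to 1647) and 1633 CPM (1573 to 1695), against 315 and 269 CPM in myofibroblasts and 38.4 (4 UMIs) and 105 CPM (29 UMIs) in pericytes. Alveolar fibroblasts exceeded myofibroblasts 4.85-fold and 6.08-fold and pericytes 39.7-fold and 15.6-fold. AT2 and AT1 nuclei, ILC2s and macrophages lay between 1.83 and 21.2 CPM, and untyped immune nuclei at 25.1 and 7.31 CPM. The promoter did not follow this order within stroma, with 38.5 (30.5 to 47.8) and 44.4 peak CPM (39.0 to 50.4) in alveolar fibroblasts, 41.9 and 39.2 in myofibroblasts and 35.6 (22.0 to 54.4) and 40.6 (30.1 to 53.5) in pericytes. AT2 nuclei were lower, at 7.29 and 7.11 peak CPM, and macrophages had 2 counts in each library. In RNA alveolar fibroblasts exceeded untyped stroma only 1.95-fold in PBS and 1.87-fold in OVA nuclei. The few adventitial fibroblasts, given in the closing section, held Unc5c RNA as well. Promoter accessibility of Unc5c thus marked stroma as a whole, while its RNA was highest in alveolar fibroblasts among the named stromal types. Peaks over the whole gene were again a comparison chosen after seeing the data. Alveolar fibroblasts gave 85.9 (73.9 to 99.4) and 87.0 peak CPM (79.3 to 95.2). Myofibroblasts gave 64.5 (53.3 to 77.3) and 47.9 (39.2 to 58.0), and pericytes 54.2 (37.1 to 76.5) and 46.2 (35.0 to 59.9). Such peaks did not follow the RNA of every member. For Slit2 they gave 71.7 and 62.5 in alveolar fibroblasts and 61.5 and 43.7 in AT2 nuclei. For Ntn4 they gave 57.9 and 60.2 in myofibroblasts and 82.5 and 76.2 in AT2 nuclei.

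Unc5b (chr10:60762593-60831581, reverse strand), a netrin receptor known from endothelium, had 172 UMIs. Pericytes were highest among the described types, at 106 CPM (52.7 to 189, 11 UMIs) and 43.4 CPM (22.4 to 75.7, 12 UMIs), followed by myofibroblasts at 35.4 and 25.2 CPM. Alveolar fibroblasts had 0 and 5 UMIs. Pericytes over myofibroblasts was log2 1.58 (0.17 to 3.03) in PBS, while in OVA nuclei the interval of log2 0.78 spanned equality (-0.50 to 2.07). Summed endothelial markers were 96 and 134 CPM in pericytes, 70.8 and 33.6 CPM in myofibroblasts and 23.3 and 18.3 CPM in alveolar fibroblasts. Their part in the Unc5b values was not tested. The Unc5b promoter was the most accessible of the members in stroma, at 59.8 and 59.9 peak CPM. It was as accessible in epithelium, at 60.8 and 63.5, with 19.7 and 21.7 in immune nuclei. Unc5b is also the shortest gene of the members (69 kb), and its UMIs are not compared with theirs. The sequence before its start, at chr10:60831582-60831831 on the reverse strand (RefSeq, GRCm38.p6), is shown as a promoter open in stroma and epithelium alike. Capitals mark 2 GC boxes, both on the other strand (CCGCCC).
Unc5b promoter: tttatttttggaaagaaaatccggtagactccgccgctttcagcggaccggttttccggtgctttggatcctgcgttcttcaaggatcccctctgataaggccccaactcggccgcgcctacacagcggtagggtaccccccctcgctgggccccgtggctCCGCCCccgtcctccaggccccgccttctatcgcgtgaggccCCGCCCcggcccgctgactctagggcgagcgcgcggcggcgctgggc
It held 66.8% G or C, while the windows before the RefSeq starts of Unc5c and Slit3, whose promoters were less open in epithelium, held 71.2% and 78.8%. Annotated exons cover all 250 bases of the Unc5c window and 232 of the Slit3 window, but 0 of the Unc5b window.

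Unc5d (chr8:28646717-29219636, reverse strand), the remaining Unc5 receptor among the members, was epithelial. AT1 nuclei held 76.4 CPM (46.7 to 118, 20 UMIs) and 65.8 CPM (46.1 to 91.2, 36 UMIs) and AT2 nuclei 46.5 CPM (25.4 to 78.1, 14 UMIs) and 84.4 CPM (61.3 to 113, 44 UMIs). AT1 and AT2 could not be told apart, with log2 differences of 0.72 (-0.34 to 1.81) and -0.36 (-1.04 to 0.31). Alveolar fibroblasts had 0 and 1 UMI. PBS pericytes again stood out with 6 UMIs (57.6 CPM), beside the epithelial markers given above, while OVA pericytes had none. The promoter gave 63.8 (53.7 to 75.3) and 79.8 peak CPM (67.8 to 93.3) in AT2 nuclei and 60.2 and 78.8 in AT1 nuclei, against 6.65 and 9.95 in alveolar fibroblasts and 16.9 and 13 in pericytes. RNA and chromatin of Unc5d therefore pointed to the same lineage.

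Dcc (chr18:71253634-72351069, reverse strand), the attractive netrin receptor of axons, had the fewest UMIs of the members, 75 in all kept nuclei. Alveolar fibroblasts held 10 (23.3 CPM) and 7 (4.13 CPM), untyped stroma 6 (11.6 CPM) and 11 (16.7 CPM), and the few adventitial fibroblasts 3 (78.4 CPM) and 2 (59.4 CPM). In a clustering that left out the members, 33 of the 75 lay in 1 stromal cluster led by Ntrk3 and Ctnna3, at 54.3 CPM over both libraries, against 0 to 7.22 CPM in the other clusters. No peak lay within 1 kb of its start.

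**Figure D2:**
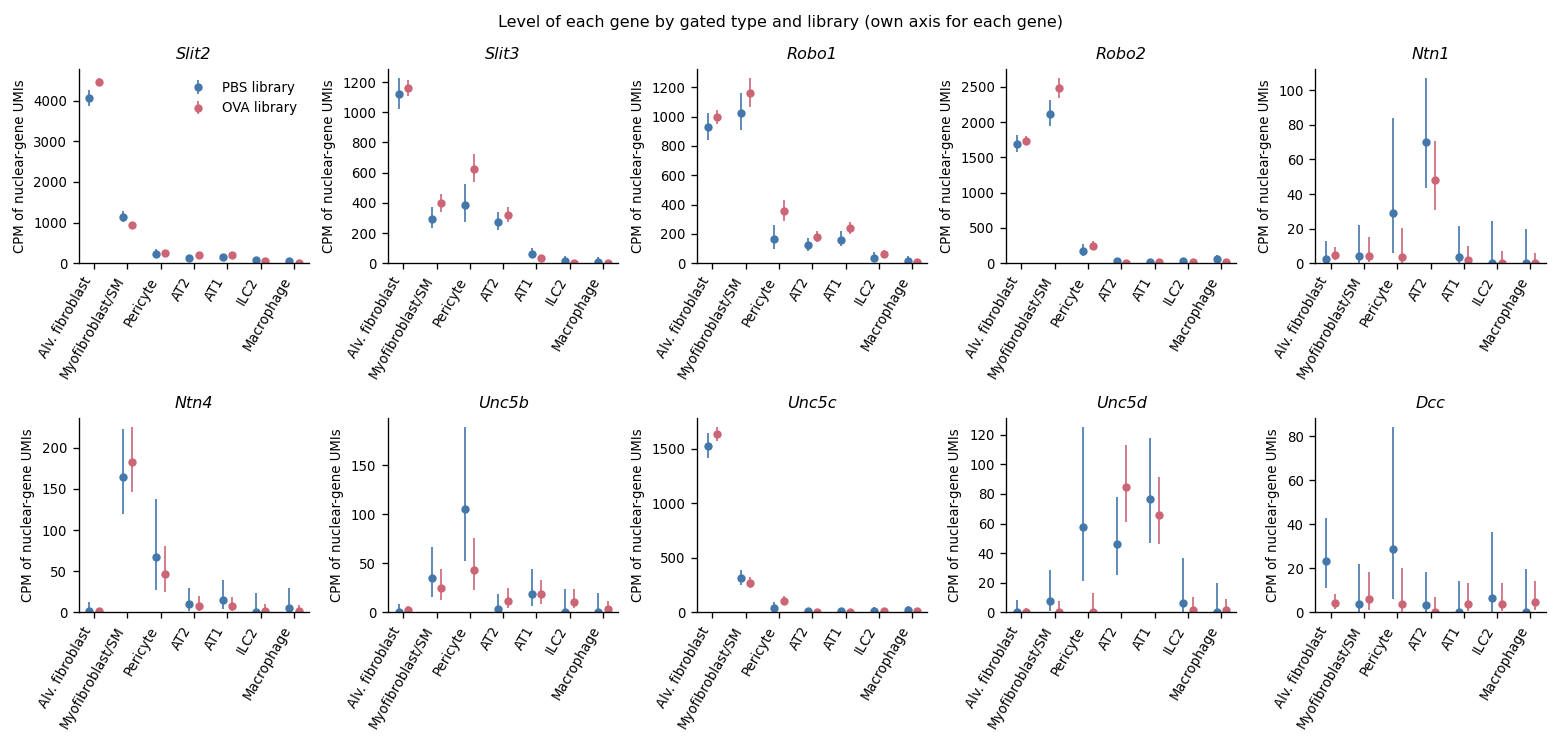
Level of each member by gated type. Each panel has its own y axis in CPM of nuclear-gene UMIs, points are the PBS (blue) and OVA (red) library and lines are 95% counting intervals. Slit2, Slit3 and Unc5c peak in alveolar fibroblasts, Robo1 and Robo2 are high in both fibroblast gates, Ntn4 peaks in myofibroblasts or smooth muscle, and Ntn1 and Unc5d are higher in AT2 or AT1 nuclei than in alveolar fibroblasts.

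A Slit and a Robo were often detected in the same alveolar fibroblast nucleus, where each alone was common too. Whether they occurred together more often than their separate shares imply was not tested. Shares were taken after drawing 500 nuclear-gene UMIs from every nucleus, leaving out shallower ones, 39 PBS and 7 OVA nuclei among alveolar fibroblasts. Slit2 was then found in 76.1% (70.9 to 80.7) and 77.3% (74.2 to 80.3) of alveolar fibroblasts and in 1.32% and 0.831% of macrophages, the background share. Unthinned, Slit2 was found in 85.8% and 94.0% of alveolar fibroblasts (median depth 895 and 1881 UMIs) and in 4.22% and 2.20% of macrophages (930 and 1453 UMIs). A Slit and a Robo were detected together in 54.1% (48.3 to 59.8) and 59.2% (55.5 to 62.7) of alveolar fibroblasts, in 26.1% and 27.1% of myofibroblasts and in 8.62% and 3.79% of pericytes. AT2 nuclei reached 0.671% and 0.575%, and macrophages 0%. At least 1 Robo was found in 65.9% and 66.6% of alveolar fibroblasts and in 67.6% and 66.3% of myofibroblasts, while at least 1 Slit was found in 82.3% and 87.5% against 38.6% and 43.0%. The fibroblast gates thus had like shares of Robo nuclei and differed in Slit nuclei. No member at all was detected in 4.26% and 2.65% of alveolar fibroblasts and in 92.7% and 96.1% of macrophages.

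**Figure D3:**
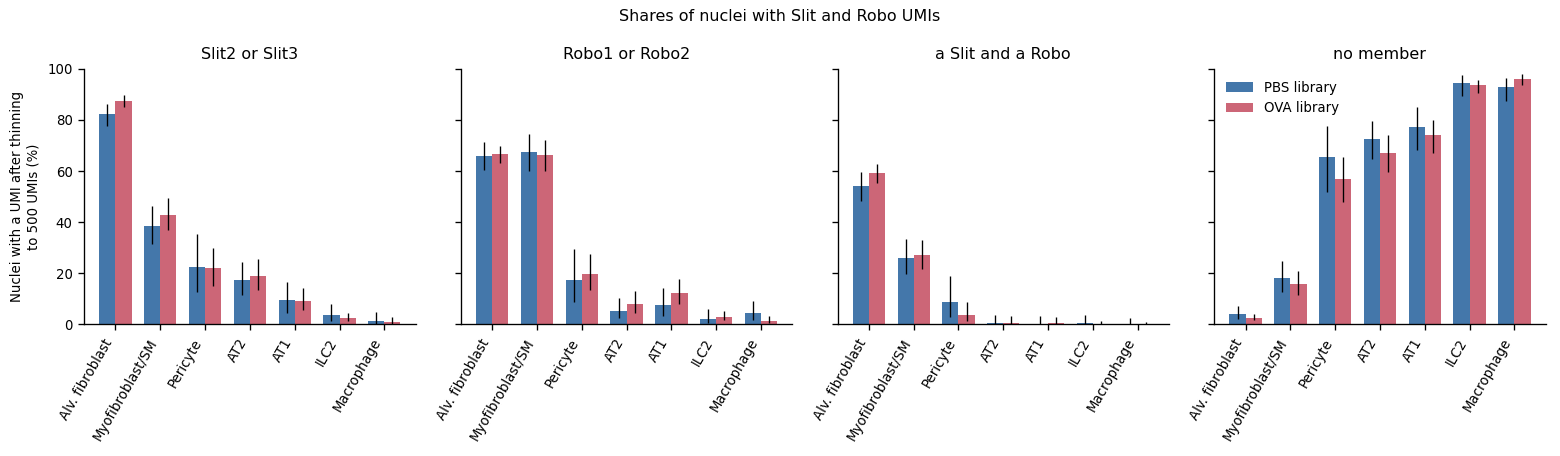
Shares of nuclei with Slit and Robo UMIs after thinning each nucleus to 500 UMIs. The y axis is the percentage of nuclei, bars are types in the PBS (blue) and OVA (red) library, lines are exact 95% binomial intervals, and the panels show any Slit, any Robo, both together and no member. Joint detection was 54.1% and 59.2% in alveolar fibroblasts and at most 0.671% in AT2 nuclei.

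Over whole lineages the RNA values repeat the choice of members and are given as a description only. All 10 members had at least 50 UMIs in the stromal and epithelial comparison, and 6 were at least 2-fold higher in stroma in both libraries with intervals that left out equality: the ligands Slit2, Slit3 and Ntn4 and the receptors Robo1, Robo2 and Unc5c. Over all 10505 genes compared, 13.3% met that rule. The rule in the other direction was met by 14.9% of genes and by Ntn1 (stroma 5.90 and 6.62 CPM, epithelium 28.2 and 22.7) and Unc5d (stroma 8.11 and 0.631 CPM, epithelium 59.6 and 62.9). Against immune nuclei 8 members could be compared, and all 8 met the rule, as did 18.2% of 10884 genes. They were the same 6 with Unc5b and Dcc. The median log2 of stroma over epithelium was 2.60 and 2.20 over the 10 members and -0.03 and -0.01 over all genes.

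Promoter accessibility, which the choice did not use, separated fewer members. Of the 9 members with a promoter peak, Slit3, Robo2 and Unc5c were at least 2-fold more accessible in stroma than in epithelium in both libraries, against 5.86% of 18228 genes. Their log2 differences in the PBS and OVA library were 2.38 (1.80 to 3.02) and 1.50 (1.02 to 2.02) for Slit3, 1.49 (1.02 to 1.99) and 2.62 (1.93 to 3.42) for Robo2, and 2.32 (1.81 to 2.88) and 2.01 (1.54 to 2.51) for Unc5c. Slit2, Robo1 and Ntn4, whose RNA was stromal, did not meet the rule. Robo1 stood at log2 0.71 (0.31 to 1.12) and 0.09 (-0.24 to 0.44). More accessible in epithelium by the same rule were 7.12% of genes and Unc5d, at log2 2.94 (2.57 to 3.32) and 2.74 (2.44 to 3.04). Against immune nuclei 8 of the 9 met the rule, Ntn4 being the exception, where 15.9% of 19032 genes did. Its log2 values of 0.73 and 1.05 were the lowest of the 9. The median log2 of stroma over epithelium was 0.22 and 0.09 over the 9 members, near the 0.12 and 0.04 over all genes, while over immune nuclei it was 2.30 and 2.80 against 0.13 and 0.11. The members went both ways against epithelium, from Slit3, Robo2 and Unc5c to Unc5d, which a median does not show.

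**Figure D4:**
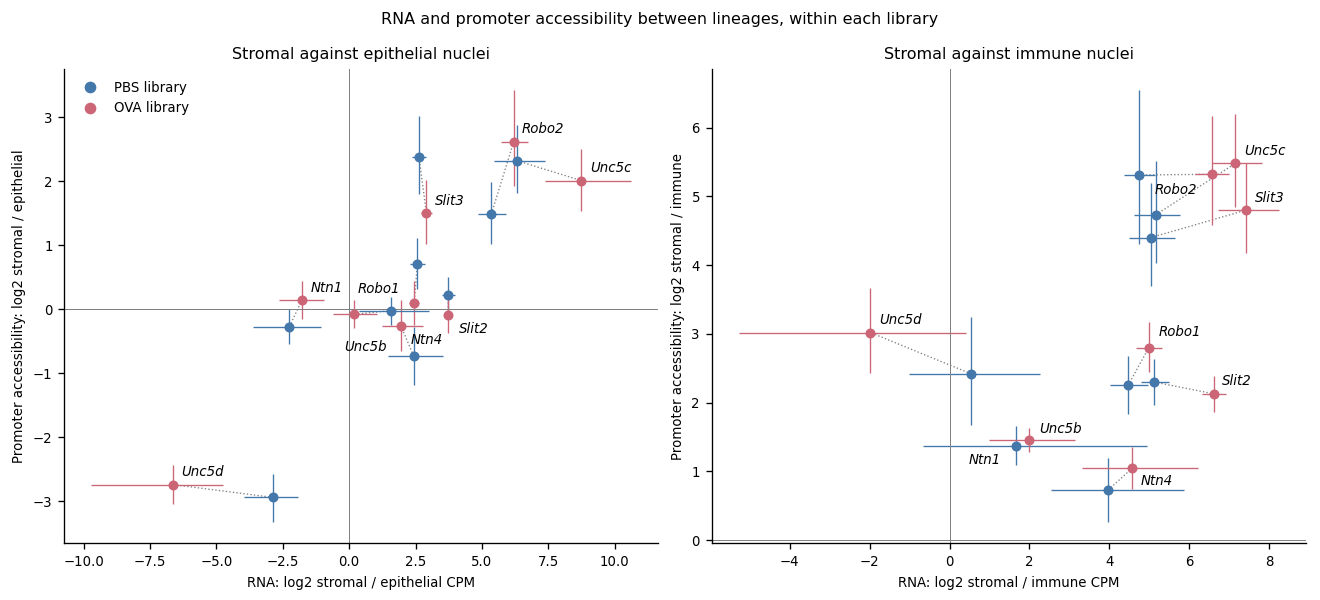
RNA against promoter accessibility for the 9 members with a promoter peak. The x axis is the log2 ratio of CPM and the y axis the log2 ratio of promoter accessibility, stromal over epithelial nuclei (left) and stromal over immune nuclei (right); points are the PBS (blue) and OVA (red) library joined by a dotted line, and bars are 95% counting intervals. Slit2 lies near 0 on the left y axis at an RNA ratio of log2 3.73 and 3.74, while Unc5c, Robo2 and Slit3 are high on both axes and Unc5d is low on both. Ntn1 has no OVA point on the right, where immune nuclei held no UMI.

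Comparing the OVA with the PBS library asks whether the mother's asthma goes with other levels of these genes. In alveolar fibroblasts 5 members had at least 50 UMIs, and none differed by 2-fold, where 2.82% of genes did. Their log2 ratios of OVA over PBS were 0.13 (0.06 to 0.21) for Slit2, 0.05 (-0.10 to 0.19) for Slit3, 0.11 (-0.05 to 0.27) for Robo1, 0.04 (-0.08 to 0.15) for Robo2 and 0.10 (-0.03 to 0.22) for Unc5c, beside a median of 0.05 over all genes of that type. A change of 2-fold lies outside each of these intervals, which cover counting error and not the difference between litters.

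In myofibroblasts or smooth muscle 6 members were compared and none differed by 2-fold, against 2.70% of genes. Slit2 was lower in the OVA library by log2 -0.29 (-0.51 to -0.07), and Slit3 was higher by 0.43 (0.04 to 0.83) and Robo2 by 0.23 (0.08 to 0.38), with a type median of 0.08. Ntn4 stood at 0.15 (-0.40 to 0.71), Robo1 at 0.18 (-0.04 to 0.40) and Unc5c at -0.23 (-0.64 to 0.19). In pericytes 1 of 4 members passed, against 7.09% of genes. This was Robo1, with 17 UMIs (163 CPM) in the PBS and 98 UMIs (354 CPM) in the OVA library, a log2 ratio of 1.12 (0.37 to 1.95). Slit3 was at 0.70 (0.20 to 1.24) there, and the type median at 0.13. The summed epithelial markers went the other way, from 355 CPM in PBS to 126 CPM in OVA pericytes. Their part in these values was not tested.

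Of the epithelial types, AT2 nuclei had 4 members to compare and AT1 nuclei 3, and none differed by 2-fold, against 4.14% and 2.71% of genes. Slit2 in AT2 nuclei was higher in the OVA library by log2 0.79 (0.24 to 1.38), from 120 to 207 CPM. Unc5d was at 0.86 (-0.04 to 1.84) in AT2 and -0.22 (-1.04 to 0.65) in AT1 nuclei, and Robo1 at 0.55 (-0.01 to 1.14) and 0.58 (0.07 to 1.12). ILC2s and macrophages had no member with 50 UMIs, where 7.34% and 7.26% of genes differed by 2-fold. Changes of members in ILC2s and macrophages were not detectable at this depth.

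Nuclei that passed a lineage gate but no type gate were compared too. In untyped stroma none of 6 members differed by 2-fold, against 2.47% of genes, with Slit2 at log2 0.27 (0.16 to 0.39), Slit3 at 0.27 (0.10 to 0.44) and Robo1 at 0.32 (0.13 to 0.51). In untyped immune nuclei 1 of 2 members did, against 3.73% of genes. This was Robo2, with 32 UMIs (50.1 CPM) in the PBS and 20 UMIs (14.6 CPM) in the OVA library, a log2 ratio of -1.78 (-2.66 to -0.93). Slit2 stood at -0.83 (-1.58 to -0.07) there, and with under 50 UMIs Slit3 stood at -1.81 (-3.04 to -0.65), Robo1 at -1.52 (-2.59 to -0.48) and Unc5c at -1.78 (-3.08 to -0.55). The 5 members high in stroma were thus all lower in untyped immune nuclei of the OVA library. Macrophages held Robo2 at 63.7 and 14.7 CPM, and the summed stromal markers of untyped immune nuclei were 287 and 235 CPM, whose part was not tested.

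**Figure D5:**
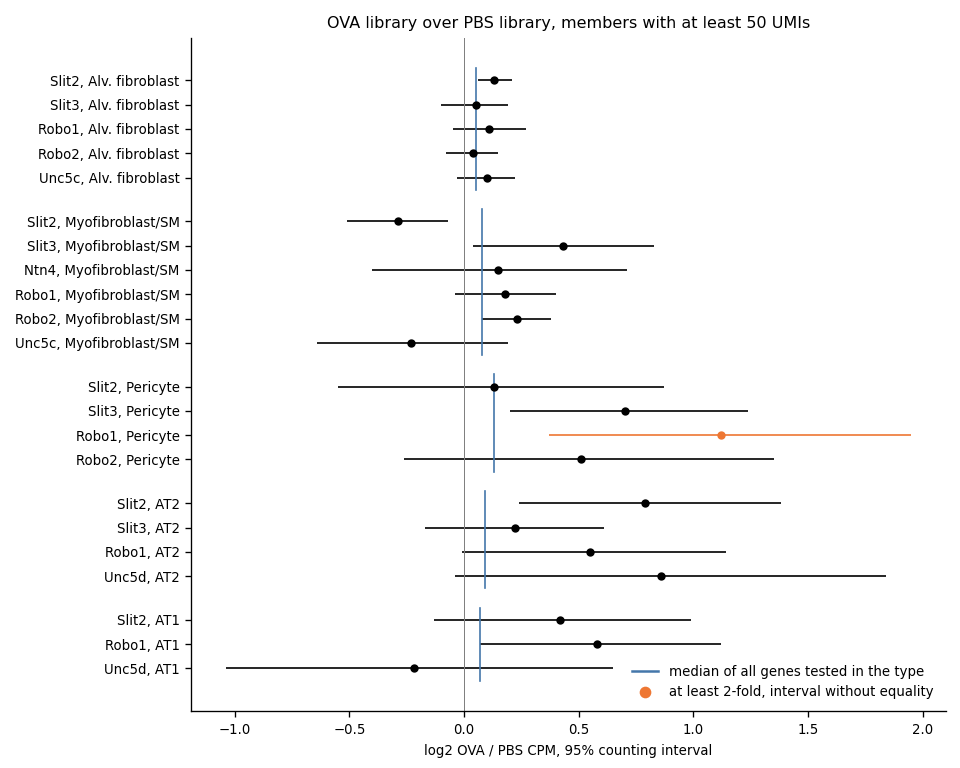
OVA over PBS for the members with at least 50 UMIs in one of the 7 named types. The x axis is the log2 ratio of CPM, points with bars are members with 95% counting intervals, and short vertical lines are the median over all genes compared in that type. Robo1 in pericytes, at log2 1.12, is the value past 2-fold; the 5 alveolar fibroblast values lie between 0.04 and 0.13.

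The other genes of the pathway were read from a list ordered by role. Of 7 other ligands 3 reached 50 UMIs against epithelium, and Ntng1, a membrane-anchored netrin G, was the 1 higher in stroma (12.5 and 17.7 CPM against 1.08 and 0.648). Rgma and Rgmb, ligands of neogenin, differed little, with Rgmb at 20.7 and 27.1 CPM in stroma and 19.5 and 24.0 in epithelium. Of 10 other receptors and binding partners 6 were compared. Neo1, which encodes neogenin, a netrin and repulsive guidance molecule receptor related to Dcc, was the 1 higher in stroma, at 548 and 780 CPM against 196 and 200 in epithelium and 33.6 and 26.7 in immune nuclei. The 3 higher in epithelium were Dag1, which encodes the Slit-binding matrix receptor dystroglycan (420 and 441 CPM against 95.9 and 85.1), the heparan sulfate carrier Sdc1 (223 and 198 against 22.9 and 13.6) and Flrt3, a ligand of Unc5 receptors (69.3 and 93.3 against 7.38 and 4.41). Among 16 intracellular partners, 2 were higher in stroma than in epithelium, near the 13.3% of all genes, and none the reverse, against 14.9%. They were the actin regulator Enah (472 and 642 CPM against 135 and 228) and Fyn, a Src family kinase (105 and 109 against 16.2 and 17.5), the latter named after its values were seen. Dapk1, a kinase linked to Unc5 signalling, was found in all lineages, at 401 and 432 CPM in stroma, 703 and 629 in epithelium and 399 and 472 in immune nuclei.

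Against immune nuclei 2 of 4 other ligands, 5 of 6 other receptors and 4 of 16 intracellular partners were higher in stroma, beside 18.2% of all genes. Between the libraries none of the 17, 15, 15, 14 and 10 pathway genes compared in alveolar fibroblasts, myofibroblasts, AT2 nuclei, AT1 nuclei and macrophages differed by 2-fold. Of all genes 2.82%, 2.70%, 4.14%, 2.71% and 7.26% did in these types. In untyped stroma none of 15 pathway genes did, beside 2.47% of all genes. In untyped immune nuclei 1 of 14 did, Fyn (83.1 and 197 CPM, log2 1.25, 0.82 to 1.70), beside 3.73% of all genes. In ILC2s 1 of 10 did, beside 7.34% of all genes, and it was Enah, with 236 CPM in the PBS and 545 CPM in the OVA library (log2 1.21, 0.71 to 1.75). In pericytes 2 of 12 did, beside 7.09% of all genes, Enah at log2 1.56 (0.33 to 3.08) and Pitpna, a phosphatidylinositol transfer protein named after its values were seen, at 1.13 (0.15 to 2.26).

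The genes most like each member were found by Pearson's r of log2(CPM + 1) over 18 points, 9 types including untyped stroma and untyped immune nuclei in 2 libraries. The points share libraries and depth, and r is a description. Robo2 was nearest to Eln (0.984), which encodes elastin, Adamtsl2 (0.982) and Opcml (0.980), and Unc5c to Mfap4 (0.984), a microfibril-associated protein, Hs6st3 (0.983) and Frem1 (0.981). Slit2 was nearest to Nebl (0.972), Peg3 (0.966) and Nisch (0.964), Slit3 to A330076H08Rik (0.978), Ptk7 (0.967) and Gpc3 (0.958), and Robo1 to Csrp1 (0.968), Il1r1 (0.962) and Ghr (0.962). The members with few UMIs had lower values. Ntn4 was nearest to Kank1 (0.948), Sntg2 (0.933) and B3galt1 (0.903), Unc5d to Kcnk1 (0.938), Cldn3 (0.925), a tight junction protein, and Cobl (0.910), and Unc5b to Igf2 (0.862), 6330403K07Rik (0.854) and Cdkl4 (0.840). No member was among the nearest 3 genes of another.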

How the data were processed

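The deposited matrices hold unnormalized counts made by the authors with Cell Ranger ARC 2.0.1 on mm10 (GRCm38), as UMI counts per gene and transposition counts per peak, with peaks called in each library on its own. The members and lists were chosen with earlier results of these data known.

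Barcodes under 200 genes or over 60% mitochondrial UMIs were left out, that is 1919 and 2400 of 8019 PBS barcodes and 454 and 457 of 5960 OVA barcodes (a barcode can fail both). Doublets, scored against simulated ones (2 per nucleus) at an expected 0.8% per 1000 barcodes, were removed: 293 PBS (6.41%) and 250 OVA nuclei (4.77%). A lineage needed at least 2 of its 8 markers and more than any other lineage, and a type the same within its lineage. No lineage was given to 29.5% of PBS and 13.4% of OVA nuclei. CPM used nuclear-gene UMIs only, since mitochondrial genes took 45.2% and 29.2% of gene UMIs. CPM has an exact Poisson interval, a ratio an exact conditional binomial interval and a share a Clopper-Pearson interval (scipy 1.17.1). A gene counted as different with at least 50 UMIs, a ratio of at least 2 and an interval without equality, between lineages in both libraries. With 1 library per group no test was run. The ratio and calling steps were tested on simulated data. All members were named in every type, of each pathway role at most the 4 genes with most UMIs unless stated, and the 3 genes most like each member with at least 100 UMIs. Gene positions are those of GENCODE M21, and sequences come from RefSeq (7 members matched). Alternatives are listed in the closing section.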

Additional observations from a re-analysis of the deposited data

Results flagged for a closer look

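Slit2 and Robo2 differed in direction between types when the OVA library was set over the PBS library. The log2 ratio of Slit2 was 0.13 (0.06 to 0.21) in alveolar fibroblasts, 0.79 (0.24 to 1.38) in AT2 nuclei and 0.27 (0.16 to 0.39) in untyped stroma, but -0.29 (-0.51 to -0.07) in myofibroblasts or smooth muscle and -0.83 (-1.58 to -0.07) in untyped immune nuclei. That of Robo2 was 0.23 (0.08 to 0.38) in myofibroblasts or smooth muscle and -1.78 (-2.66 to -0.93) in untyped immune nuclei. The intervals lay on opposite sides of 0 for counting error, with 1 library per group, and the differences between types were not tested. Of these values only that of Robo2 in untyped immune nuclei passed 2-fold.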

How the results depend on the processing

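Of 545 values recomputed under the alternatives, 422 kept within the spread of the value reported and 122 moved beyond it. In 1 a value whose interval left out equality changed sign. Sign changes of values whose interval spanned equality were not counted apart. No paired analysis was possible because a group consists of 1 library, and no replicate could be left out. The counted sign change was that of Slit3 in myofibroblasts, OVA over PBS, which became -0.13 with clusters in place of gates. The following are mean log2 values over both libraries, or log2 OVA over PBS, and the cause of each move was not tested. Stroma over epithelium gave Slit2 3.48, Robo2 5.26 and Unc5c 6.49 with doublets kept, Slit2 3.49, Robo2 4.43 and Unc5c 5.46 with clusters, and Slit3 2.29, Ntn4 2.91 and Unc5b 1.82 as the mean over single nuclei. Stroma over immune nuclei gave Slit2 6.29, Robo1 5.15 and Robo2 6.08 with all gene UMIs as denominator, Slit2 4.75, Slit3 4.54, Robo1 4.05, Robo2 4.51 and Unc5c 4.77 with doublets kept, Slit2 6.53, Ntn4 5.49 and Robo2 6.06 with clusters, Slit2 5.37 and Robo2 5.31 at no more than 40% mitochondrial UMIs, and Slit3 5.75 as the mean over single nuclei. No lineage value whose interval left out equality changed sign. OVA over PBS in alveolar fibroblasts gave Slit2 0.27, Robo2 0.18 and Unc5c 0.24 with all gene UMIs, Slit2 0.23 with 1 type marker and 0.22 with doublets kept, Robo2 0.17 with clusters and Slit3 0.20 as the mean over single nuclei, and 61 genes passed 2-fold at 100 UMIs and 346 at 20 UMIs against 160 at 50. Promoters gave stroma over epithelium of -0.84 for Ntn4 and 1.40 for Robo2 within 5 kb and -2.55 for Unc5d with doublets kept, and stroma over immune nuclei of 1.81 for Robo1 and 4.21 for Robo2 within 5 kb and of 3.91 for Slit3, 2.18 for Robo1, 4.15 for Robo2, 1.30 for Unc5b and 4.36 for Unc5c with doublets kept. Shares of nuclei with a UMI, taken in the type highest for each member, moved in 29 alternatives and kept in 11. These were no thinning and thinning to 250 UMIs, so the shares hold for the depth drawn. Depth limits Ntn1, Ntn4, Unc5b, Unc5d and Dcc, with 75 to 286 UMIs each, and the members in ILC2s and macrophages.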

Other observations

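Types with too few nuclei for a full description held some members too. Adventitial fibroblasts (28 PBS and 20 OVA nuclei) had Slit3 at 1228 CPM (902 to 1633) and 1336 CPM (974 to 1787), and Unc5c at 888 and 1187 CPM. Ciliated nuclei (19 and 15) had Slit2 at 465 (306 to 677) and 448 CPM (344 to 573), the highest among epithelial gates, with no Unc5c UMI in either library. Mast cells or basophils (43 and 84) had Robo1 at 228 CPM (91.6 to 469) and 238 CPM (149 to 360), above the 15.9 and 8.14 CPM of macrophages, while their Slit2 was 521 CPM in the PBS and 86.5 CPM in the OVA library. Endothelial nuclei (17 and 25) had Unc5b at 40.7 CPM (11.1 to 104) and 114 CPM (54.6 to 209).

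Clustering without the members or pathway genes gave a stromal cluster led by Ntrk3 and Ctnna3 (232 PBS and 189 OVA nuclei) in which Slit3 was at 1630 CPM and Slit2 at 516 CPM, against 1010 and 3330 CPM in the larger of the alveolar fibroblast clusters. The alveolar fibroblast clusters followed the library in part, 715 PBS beside 350 OVA nuclei in the first and 207 beside 834 in the other. No explanation was tested for these values.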
